A study of Mus musculus with 2 samples.

Results

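Plasma cells of the mouse gut were taken from single-cell RNA sequencing of dissociated whole intestine by a rule on raw counts of unique molecular identifiers (UMIs). Members were chosen by their own UMIs of 4 genes, among barcodes that reached 500 UMIs and 250 genes and had no more than 25% of UMIs from mitochondrial genes. Each had at least 20 UMIs of Jchain, at least 1 of Mzb1, 0 of Cd3e and at most 1 of Epcam. The rule took 83 of 15156 kept barcodes, 51 of 6909 RA and 32 of 8247 butyrate barcodes. The RA library was made from 1 wild-type mouse that was fed standard chow and had collagen-induced arthritis, and the butyrate library from 1 wild-type mouse on a diet with 1% butyrate. The labels give no strain, sex or age, and leave the arthritis status of the second mouse unstated. With 1 mouse per group no difference could be tested, and every interval given is a 95% interval that covers counting error only. Cells of a mouse share their source and are not replicates of a diet.

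Plasma cells are the antibody-secreting end of the B cell lineage. In the gut most of them make dimeric IgA, in which the joining chain (Jchain) links the antibodies for export across the epithelium by the polymeric immunoglobulin receptor. To become a plasma cell a B cell shuts down Pax5 and its targets, turns on Prdm1 and Xbp1, widens its endoplasmic reticulum (ER) and, after a last phase of division as a plasmablast, stops dividing.

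The libraries held 61912439 UMIs (RA) and 67894477 UMIs (butyrate), with medians of 4712 and 5141 UMIs per kept barcode. Members were deeper, with 891 to 28559 UMIs and a median of 16571 in the RA library, and 3527 to 63422 UMIs with a median of 17215.5 in the butyrate library. The shallowest barcodes of any kind held 501 UMIs (RA) and 2313 UMIs (butyrate). The libraries had 27 barcodes in common, 0 of them a member.

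Jchain, Igha, Mzb1, Tnfrsf17 and Derl3 had been named as markers, and the first and the third of these chose the members, so their levels describe the rule. Jchain ranged from 20 to 1849 UMIs per RA member (median 691) and from 20 to 1159 per butyrate member (median 216). Mzb1, a chaperone-like ER protein that helps to assemble IgM and IgA, was low throughout, at 1 to 6 UMIs (median 1) and 1 to 4 UMIs (median 1.5). Igha, the IgA heavy chain constant gene, ranged from 0 to 3337 UMIs per RA member (median 1442) and from 0 to 2245 per butyrate member (median 289). Tnfrsf17, the receptor for the survival factor APRIL, had a UMI in 48 of 51 RA members (median 5) and in 19 of 32 butyrate members (median 1.5). B cells of the same libraries, at median depths of 4221 and 4723.5 UMIs, had it in 0 of 2026 cells, which allows a share of up to 0.148%, and in 2 of 2978. Derl3, a channel protein of ER-associated degradation, had a UMI in 49 and 21 members. Markers other than Mzb1 were thus high in nearly all RA members, while 13 of the 32 butyrate members had no UMI of Tnfrsf17.

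The butyrate members fell into 2 parts by Jchain. In 12 of the 32, Jchain lay between 20 and 58 UMIs, and in the other 20 between 162 and 1159. In the RA library 2 of 51 members were low (20 and 57 UMIs) and the other 49 began at 203. The 12 low butyrate members all carried Ms4a1, the B cell surface protein CD20 (median 6 UMIs), had a UMI of Tnfrsf17 in 3 of 12 and a median of 1 UMI of Igha, and 9 of the 12 were dividing by the count described below. Their summed UMIs held 72 of Pax5 and 39 of Bcl6, genes of the B cell and germinal centre programmes, and both were at 0 in the 20 high members. The high members held 165 UMIs of Cd28 against 0, 77 of the IgA plasma cell chemokine receptor Ccr10 against 2, and 157 of Prdm1, the repressor of the B cell programme, against 20. In CPM, a level defined below, the 12 were also set beside B cells of their library. Prdm1 was at 64.5 against 6.42 CPM, Xbp1 at 148 against 30.5 and Derl3 at 58.05 against 2.67. Pax5 was at 232 against 392 CPM and Ebf1 at 1561 against 3983. Some genes went the other way, with Irf4 at 129 against 146.5 CPM, Sdc1 at 6.45 against 7.84 and Bcl6 at 125.8 against 88.1. These 12 members thus differed from B cells and from the high members, and the name plasma cell is uncertain for them. They are called Jchain-low members here. The values chose this split after they were seen, so no weight is put on it beyond the description.

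**Figure D1:**
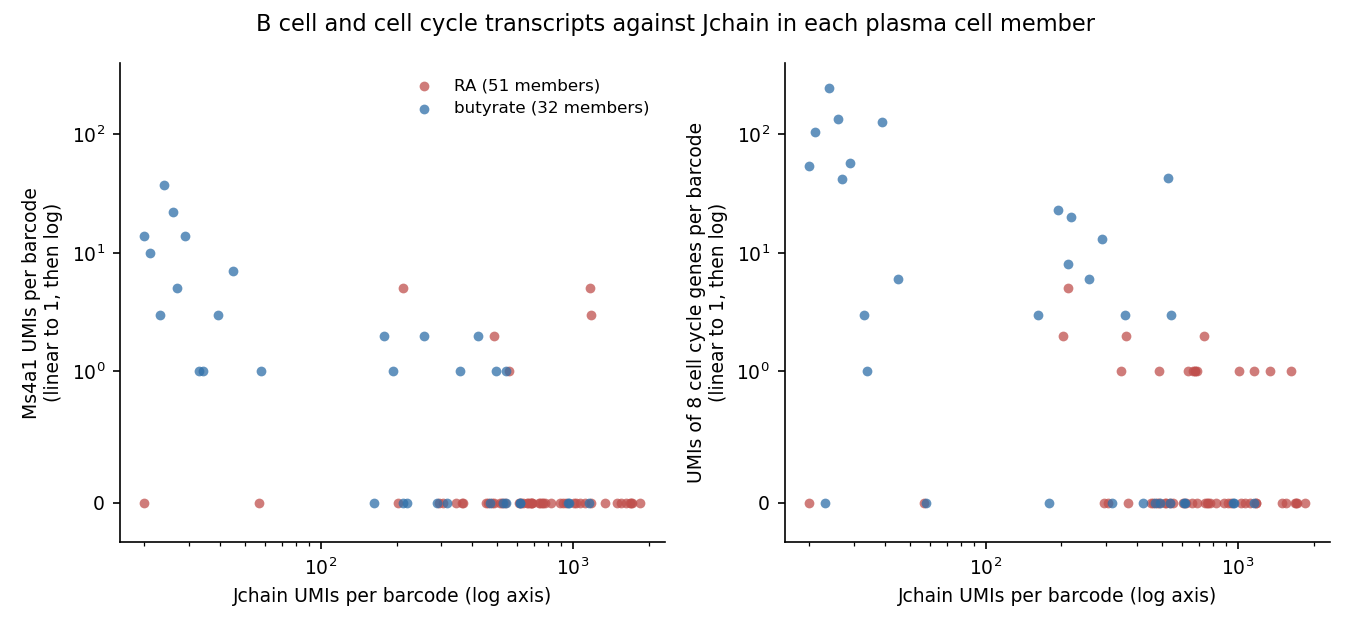
Each point is 1 member, with its Jchain UMIs on the x axis (log scale) and its UMIs of Ms4a1 or of 8 cell cycle genes on the y axis, coloured by library. The 12 butyrate members below 100 Jchain UMIs all have Ms4a1, and no member of either library lies between 58 and 162 Jchain UMIs.

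Butyrate barcodes at the edge of the rule also carried Ms4a1. Just inside it, with 20 to 29 Jchain UMIs, lay 1 RA member (Igha 30 UMIs) and 7 butyrate members with medians of 14 Ms4a1 UMIs and 0 Igha UMIs. Just outside, with 10 to 19 Jchain UMIs and all other conditions met, lay 0 RA and 13 butyrate barcodes with a median of 18 Ms4a1 UMIs and no UMI of Tnfrsf17. On the other side the rule left out much. Of the kept barcodes with at least 20 Jchain UMIs (159 RA, 126 butyrate), 54 and 53 had no UMI of Mzb1, 68 and 59 had at least 2 of Epcam, and 3 and 3 had a UMI of Cd3e. Failing both Mzb1 and Epcam were 16 and 18.

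A pair of further selections, chosen after these values were seen, therefore stands beside the members. The first is the 69 members with at least 100 Jchain UMIs (49 RA, 20 butyrate). The second is every kept barcode with at least 100 Jchain UMIs and no Cd3e, without the conditions on Mzb1 and Epcam, 145 RA and 87 butyrate barcodes, called Jchain-high barcodes. The median Jchain-high barcode had 744 UMIs of Jchain and 1506 of Igha in the RA library, and 541 and 908 in the butyrate library. Tnfrsf17 was present in 134 of 145 and 77 of 87 of them, with a median of 4 UMIs in both libraries. Mzb1 had a UMI in 101 of 145 and 58 of 87, so its absence from a barcode did not go with an absence of the other markers.

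Members made up 0.738% of kept RA barcodes (0.550% to 0.969%) and 0.388% of kept butyrate barcodes (0.266% to 0.547%), a ratio of 0.526 (0.327 to 0.834). Among members with at least 100 Jchain UMIs the shares were 0.709% and 0.243% (ratio 0.342, 0.193 to 0.586), and for Jchain-high barcodes 2.10% and 1.05% (ratio 0.503, 0.381 to 0.660). All 3 ratios lay below 1 with their counting intervals. A Jchain minimum of 10 UMIs, which lets in the 13 barcodes just outside, gave a ratio of 0.739 with an interval that reached 1.126. How the intestine was dissociated and loaded also sets such shares, and the spread between mice is unknown.

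Immunoglobulin took a large part of the members' RNA. Immunoglobulin genes held 11.5% to 69.3% of the UMIs of an RA member (median 34.1%) and 0.317% to 50.8% of a butyrate member (median 11.3%). In B cells the share of summed UMIs was 0.562% and 0.586%. The lower butyrate median came in part with the Jchain-low members, whose own median was 0.978%. With at least 100 Jchain UMIs the medians were 34.7% and 21.4%, and in Jchain-high barcodes 34.8% and 33.1%. The gap between the medians was thus widest in members and narrowest in Jchain-high barcodes.

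IgA was the main class. A member was assigned a class where at least 80% of at least 20 heavy chain constant UMIs came from 1 gene. IgA was the class of 48 of 51 RA members (94.1%, 83.8% to 98.8%) and of 19 of 32 butyrate members (59.4%, 40.6% to 76.3%). Other classes in the butyrate library were IgG2b in 3, IgG1 in 2 and IgM in 2 members, with 4 mixed and 2 with too few UMIs. In the RA library they were IgG2b in 1 and mixed in 2. Among members with at least 100 Jchain UMIs IgA was the class of 47 of 49 and 16 of 20, and among Jchain-high barcodes of 139 of 145 (95.9%, 91.2% to 98.5%) and 77 of 87 (88.5%, 79.9% to 94.3%). As background from free RNA, T cells, which make no antibody, had a UMI of Igha in 16.6% of cells at a median depth of 6064 UMIs (RA) and in 10.1% at 6200.5 (butyrate).

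Igha (12, 113254830 to 113260236 of GRCm38, minus strand) gave 80073 of the RA members' heavy chain constant UMIs (98.25%) and 15471 of the butyrate members' (89.9%). Ighg2b gave 1113 and 1337, but a single member held 654 of the first and 954 of the second. In Jchain-high barcodes Ighm, the IgM constant gene, had 289 UMIs in RA (0.125% of heavy chain constant UMIs) and 4878 in butyrate barcodes (4.97%), and 2790 of the latter came from 1 barcode. Ighg1 gave 1504 and 2233 UMIs there, 2175 of the latter from 1 barcode. A few very productive cells therefore set the levels of the rarer classes. Members called mixed combined Ighg2b with Ighg2c, such as 177 and 58 UMIs beside 26 of Igha in 1 RA member and 139 and 75 in 1 butyrate member. The members assigned IgG2b with 954, 654 and 108 UMIs of Ighg2b had 0 of Ighg2c. IgG constant genes resemble each other, and whether the counting split reads between them was not tested, so the class of the mixed members is uncertain.

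Light chains were kappa. All 51 RA members had at least 80% kappa constant UMIs, as had 28 of 32 butyrate members (87.5%, 71.0% to 96.5%), and the other 4 were mixed. Igkc, the kappa constant gene, ranged from 79 to 10151 UMIs (median 4499) in RA members and from 18 to 6335 (median 1533.5) in butyrate members. All 69 members with at least 100 Jchain UMIs were kappa, and 143 of 145 and 86 of 87 Jchain-high barcodes.

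Variable (V) genes of the heavy and the light chain could both be read in 34 RA and 12 butyrate members, where 1 gene held at least 50% of at least 5 V UMIs. In the RA library 14 members shared both V genes with another member, in 5 pairs. Ighv2-6-8 with Igkv1-117 was found in 4 members, Ighv1-81 with Igkv1-110 in 3, Ighv3-6 with Igkv5-39 in 3, and Ighv7-3 with Igkv3-7 and Ighv9-3 with Igkv5-37 in 2 each. No butyrate member shared its pair. Over Jchain-high barcodes with a kappa V gene, 46 of 77 RA barcodes fell in 12 shared pairs, the largest with 9, and 12 of 40 butyrate barcodes in 4, the largest with 4. Counting every heavy and kappa pair read, whether shared within a library or not, 3 were found in both libraries. Sharing is easier to see the more barcodes are read, and the junctions that would identify a clone are not in these counts, so a shared pair is no clone. Iglv1 led the light chain in 8 RA and 4 butyrate members that all had kappa constant UMIs, and their light chain V call is uncertain.

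Against B cells of their own library, the members showed the secretory programme. Levels here are summed UMIs per 1000000 (CPM) of the members' UMIs that are not of immunoglobulin genes. Of 3486 genes with at least 50 UMIs, 462 (13.3%) were at least 2-fold higher than in B cells in both libraries, and 217 (6.22%) at least 2-fold lower. Because B cells and members differ by the genes of the rule, these ratios describe the members and were not tested.

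Regulators and surface proteins of plasma cells were high. Of 17 measured, 12 were at least 2-fold higher in both libraries and none lower. Xbp1, the transcription factor that widens the ER, was at 1320 CPM in RA and 552 CPM in butyrate members, 43.4-fold (37.9 to 49.8) and 18.1-fold (15.7 to 20.8) over B cells. Prdm1 was 62.9-fold and 48.2-fold over B cells, and Creb3l2, an ER-membrane transcription factor, 49.5-fold and 33.7-fold. Tent5c, which stabilises immunoglobulin messages, was 53.7-fold and 18.7-fold higher. Tnfrsf17 was at least 2097-fold higher in RA members, since RA B cells had 0 UMIs and the bound takes a floor of 3 counts over the group. Irf4, needed for plasma cell formation, was 3.06-fold and 1.85-fold over B cells. The RA ratio was the larger for each of these genes, and among members with at least 100 Jchain UMIs it was no longer so for Prdm1 (63.4 and 93.2) and Creb3l2 (49.2 and 63.9).

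The ER folding list holds chaperones and disulfide isomerases. Of 23 measured genes 20 were at least 2-fold over B cells in both libraries, and 1, Ero1lb, was lower. Hsp90b1, the ER form of Hsp90, was 16.0-fold and 9.06-fold over B cells, at 5892 CPM and 4808 CPM. Pdia4, a disulfide isomerase, was 36.0-fold and 14.5-fold over B cells, Sdf2l1, a partner of the chaperone BiP, 29.7-fold and 15.9-fold, and Txndc5, another disulfide isomerase, 45.6-fold and 15.2-fold. Hspa5, which encodes BiP itself, was 5.21-fold and 3.03-fold over B cells. Medians over the list on the log2 scale were 2.81 and 2.23, against -0.31 and -0.01 over all genes. With at least 100 Jchain UMIs they were 2.81 and 2.92, so the lists of both libraries lay at the same height there.

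Genes of translocation and signal peptide removal were at least 2-fold over B cells in both libraries for 14 of 20, among them Sec11c, a subunit of signal peptidase (18.8-fold and 9.62-fold), and Ssr4, of the translocon-associated complex (22.7-fold and 8.79-fold). Of 15 measured genes of ER-associated degradation 12 passed, with Derl3 at 283-fold (168 to 515) and 74.0-fold (52.2 to 106) and Edem2, a mannosidase-like protein that marks misfolded glycoproteins, at 27.9-fold and 15.4-fold. N-glycosylation passed for 8 of 16 and ER to Golgi transport for 11 of 20. The B cell programme ran the other way, with 10 of 13 lower and 0 higher. Ms4a1 is among the 10, and the B cells were chosen by Ms4a1 and Cd79a, so its low ratio describes that choice. Ms4a1 stood at 0.0492 and 0.373 of its B cell level, Ebf1, an early B lineage factor, at 0.0926 and 0.228, and Pax5 at 0.0727 and 0.321. Without the Jchain-low members the butyrate values were 0.0635, 0.0335 and 0.

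Promoters of the ER folding genes are shown because most of these genes moved together against B cells. RefSeq promoters of GRCm38.p6 (the 250 bases before the start) were searched on both strands for the ER stress response element (CCAAT, 9 bases of any kind, then CCACG) and the unfolded protein response element TGACGTGG. The end of the first, CCACG, is also the start of the second read on the other strand, so the 2 can overlap. Of 25 gene symbols in the ER folding list 21 were matched. A symbol was counted where any of its promoters held the element. The first element was found for 8 of the 21 (38.1%) and for 35 of all 27025 gene symbols with a promoter (0.130%). The second was found for 2 (9.52%) and for 163 (0.603%). The 8 include Ero1b, another name of Ero1lb, the gene of this list that was lower than in B cells. Of 12 matched genes of ER-associated degradation 3 had a promoter with 1 of the elements, and no promoter of the translocation list did. The capitals below mark the element, on the given strand or its complement, in promoters of 5 genes named here. Both are published elements of the unfolded protein response, so their high share among ER folding genes is no test. A match is a description and not a site shown to be used. Hspa5 is at chr2:34771840-34772089 (plus strand), with the element 46 bases before the start. Hsp90b1 is at chr10:86705445-86705694 (minus strand), with 2 elements. Creld2, an ER folding factor 25.1-fold and 17.3-fold over B cells, is at chr15:88819396-88819645 (plus strand). Derl3 is at chr10:75893148-75893397 (plus strand), and Txndc5 at chr13:38527915-38528164 (minus strand), where the second element is marked.
Hspa5: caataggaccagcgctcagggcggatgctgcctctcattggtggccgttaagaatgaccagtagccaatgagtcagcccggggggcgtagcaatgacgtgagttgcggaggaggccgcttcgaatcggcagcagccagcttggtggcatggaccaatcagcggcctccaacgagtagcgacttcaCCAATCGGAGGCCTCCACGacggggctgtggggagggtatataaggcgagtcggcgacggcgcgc
Hsp90b1: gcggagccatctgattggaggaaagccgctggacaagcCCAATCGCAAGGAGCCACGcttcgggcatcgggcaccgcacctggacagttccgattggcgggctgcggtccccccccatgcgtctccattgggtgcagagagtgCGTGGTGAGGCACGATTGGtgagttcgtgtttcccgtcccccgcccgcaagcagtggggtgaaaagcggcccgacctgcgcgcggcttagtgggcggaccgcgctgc
Creld2: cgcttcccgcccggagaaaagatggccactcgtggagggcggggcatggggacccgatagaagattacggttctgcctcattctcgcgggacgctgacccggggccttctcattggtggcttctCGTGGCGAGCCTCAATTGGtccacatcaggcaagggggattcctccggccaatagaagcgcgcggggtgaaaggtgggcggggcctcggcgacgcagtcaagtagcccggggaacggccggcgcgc
Derl3: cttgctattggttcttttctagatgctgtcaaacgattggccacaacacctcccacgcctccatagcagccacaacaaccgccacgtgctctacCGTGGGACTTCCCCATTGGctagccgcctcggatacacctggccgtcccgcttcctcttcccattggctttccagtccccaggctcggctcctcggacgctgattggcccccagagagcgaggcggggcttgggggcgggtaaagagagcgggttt
Txndc5: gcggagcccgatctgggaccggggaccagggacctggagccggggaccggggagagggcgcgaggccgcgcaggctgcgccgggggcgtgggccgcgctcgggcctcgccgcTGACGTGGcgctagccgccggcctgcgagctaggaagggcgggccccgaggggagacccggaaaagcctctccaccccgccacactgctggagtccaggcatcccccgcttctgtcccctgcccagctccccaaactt

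Survival and homing genes were mixed. Of 14 measured survival genes 5 were at least 2-fold over B cells in both libraries and 1 was lower, and of 11 homing genes 4 were higher and 3 lower (Cxcr4, S1pr1 and Gpr183). Cd28, a costimulatory receptor that also supports long-lived plasma cells, was 243-fold (159 to 389) and 73.6-fold (55.2 to 98.9) over B cells. Ccr10, the receptor for the mucosal chemokine CCL28, had 208 UMIs in 40 RA members and 79 in 15 butyrate members, against 1 UMI in the B cells of each library (ratios 3894, 691 to 154544, and 2430, 424 to 97169). Itgb7, the beta chain of the gut homing integrin, was 6.66-fold and 5.22-fold over B cells. Ccr9, the small-intestine homing receptor, gave 5.72-fold and 1.84-fold. Its butyrate ratio rested on 1 UMI in the Jchain-low members and 3 in the other butyrate members, so that level is uncertain. Cxcr4 stood at 0.16 and 0.41 of B cells. Ly6c2, a surface protein counted above among the regulators and surface proteins, was 539-fold (390 to 765) and 235-fold (179 to 313) higher. Fcer1g, a signalling chain of antibody receptors, was 56.2-fold and 23.8-fold higher. Mt1, a metallothionein, was 26.0-fold and 47.3-fold over B cells, the reverse order of most.

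Division was the sharpest contrast between the member sets. A member was counted as dividing with at least 3 UMIs over Mki67, Top2a, Birc5, Ube2c, Cdk1, Cenpf, Tpx2 and Ccna2. Dividing were 1 of 51 RA members (1.96%, 0.0496% to 10.4%) and 18 of 32 butyrate members (56.25%, 37.7% to 73.6%), beside 2.76% and 5.31% of B cells. Among members with at least 100 Jchain UMIs they were 1 of 49 and 9 of 20. In Jchain-high barcodes they were 20 of 145 (13.8%, 8.63% to 20.5%) and 23 of 87 (26.4%, 17.5% to 37.0%). After thinning each barcode to 1500 non-immunoglobulin UMIs and asking for at least 2, the shares were 0 of 50 (up to 6% allowed) and 10 of 32 in members, 0 of 49 (up to 6.12%) and 3 of 20 in members with at least 100 Jchain UMIs, and 8 of 144 (5.56%) and 14 of 87 (16.1%) in Jchain-high barcodes. B cells, which were less deep, gave 25 of 2021 (1.24%) and 104 of 2978 (3.49%) when thinned in the same way. Each of these selections thus had the larger share in the butyrate library, but the size of the gap moved with the selection. Jchain-high barcodes include the members with at least 100 Jchain UMIs. Without these, 19 of 96 RA (19.8%, 12.4% to 29.2%) and 14 of 67 butyrate Jchain-high barcodes (20.9%, 11.9% to 32.6%) were dividing before thinning. The gap in Jchain-high barcodes thus came with the members among them.

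The dividing share differed most by the Epcam condition in the RA library and by the Mzb1 condition in the butyrate library. Among RA Jchain-high barcodes 17 of 67 with at least 2 Epcam UMIs were dividing (25.4%) against 3 of 78 with fewer (3.85%), at median depths of 19596 and 15911 UMIs. In the butyrate library the shares were 13 of 53 (24.5%) and 10 of 34 (29.4%), at 18017 and 15250 UMIs. By Mzb1, 16 of 101 RA barcodes with a UMI were dividing (15.8%) against 4 of 44 without (9.09%), at 17901 and 15870 UMIs. Butyrate barcodes gave 22 of 58 (37.9%) and 1 of 29 (3.45%), at 18035.5 and 14672 UMIs. The rule as a whole left 19 of the 20 dividing RA barcodes of high Jchain out of the members, and 14 of the 23 butyrate ones.

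Epcam, an epithelial adhesion protein, was frequent among Jchain-high barcodes, with at least 2 UMIs in 46.2% (37.9% to 54.7%) of RA and 60.9% (49.9% to 71.2%) of butyrate barcodes. Among B cells taken without the condition on Epcam (2391 and 3532 cells), 4.68% and 4.90% had at least 2 UMIs, as had, of those with at least 10000 UMIs in all, 28.3% and 15.3%, against 48.1% and 62.7% of Jchain-high barcodes of that depth. Jchain-high barcodes with at least 2 Epcam UMIs had a median of 1 UMI over 8 epithelial markers, and 60 of 67 and 47 of 53 had fewer than 20. A few held many, up to 602 and 352 UMIs, and summed over barcodes the markers were at 2424 and 1357 CPM with at least 2 Epcam UMIs against 185 and 114 CPM with fewer. In the B cells with at least 2 Epcam UMIs the median was 27 and 30. Summed Epcam was at 406 and 425 CPM in the Jchain-high barcodes with at least 2 Epcam UMIs, at 44.6 and 35.6 CPM in the others, and at 1907 and 2198 CPM in epithelial cells. Whether plasma cells carry Epcam messages of their own was not tested.

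Between the libraries, members were compared by the ratio of CPM, butyrate over RA. Of 3486 genes with at least 50 UMIs, 940 (27%) were at least 1.5-fold higher and 574 (16.5%) at least 1.5-fold lower in butyrate members, with a median log2 ratio over all genes of 0.14. Taken per 1000000 of all UMIs, immunoglobulin included, the counts were 1801 and 179. Members with at least 100 Jchain UMIs gave 298 (12.2%) higher and 250 (10.2%) lower of 2444, and Jchain-high barcodes 488 (7.84%) and 496 (7.97%) of 6221. Since the Jchain-low members sit almost wholly in the butyrate library, values in the other selections stand beside those of members for the genes that follow.

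The highest ratios were of cell cycle genes. Pclaf, a clamp-binding protein of replication, had 1 UMI in RA and 340 in butyrate members (ratio 318, 56.7 to 12599), a ratio of 140 (24.3 to 5600) with at least 100 Jchain UMIs, and 163 and 365 in Jchain-high barcodes (3.32, 2.75 to 4.02). Top2a, a topoisomerase, had 4 and 241 UMIs (56.4, 21.7 to 209), a ratio of 17.2 (6.14 to 66.8) with at least 100 Jchain UMIs and of 2.54 (2.07 to 3.14) in Jchain-high barcodes. Birc5, of the chromosomal passenger complex, had 0 and 110 UMIs, at least 34.3-fold higher against a floor of 3 counts over the group, at least 8.1-fold with at least 100 Jchain UMIs, and 2.99-fold (2.21 to 4.08) in Jchain-high barcodes. Ube2c, Rrm2, Nusap1 and Stmn1 had 1, 1, 1 and 2 UMIs in RA members against 139, 94, 94 and 113, and ratios of 2.51, 2.65, 2.32 and 2.34 in Jchain-high barcodes. With at least 100 Jchain UMIs their ratios were 24.3 (3.60 to 1039), 50.6 (8.29 to 2079), 12.15 (1.475 to 559) and 12.15 (2.71 to 112). All 20 measured cell cycle genes were past 1.5-fold higher in members and 19 of 21 in Jchain-high barcodes (median log2 1.22). In B cells 18 of 22 were past it too, with a median of 1.08, so B cells of the butyrate library also held more cell cycle RNA.

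The lowest ratios did not hold their size over the selections. Slpi, a secreted protease inhibitor, had 304 UMIs in 23 RA members and 18 in 8 butyrate members (ratio 0.0554, 0.0324 to 0.0890, and 0.0898 with at least 100 Jchain UMIs), but 407 and 194 UMIs in Jchain-high barcodes (0.707, 0.593 to 0.841). Cxcl10, an interferon-induced chemokine, gave 0.144, 0.289 and 0.821 (0.639 to 1.05) in members, members with at least 100 Jchain UMIs and Jchain-high barcodes, and Lmna, a nuclear lamin, 0.231, 0.275 and 1.17 (1.03 to 1.34), which turned the direction. Bbs9, a protein of the ciliary BBSome, stayed past 1.5-fold, at 0.160 (0.0815 to 0.290), 0.297 and 0.424 (0.305 to 0.580), as did Wipi1, an autophagy protein, at 0.213, 0.460 and 0.542 (0.371 to 0.777), and Cd200, an inhibitory ligand, at 0.172, 0.248 and 0.645 (0.453 to 0.906). Fam129a gave 0.162, 0.246 and 0.792 and the histone gene H2bc4 0.208, 0.216 and 0.671.

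Plasma cell genes were lower in butyrate members, by an amount that also shrank. Jchain, which the rule used, stood at 0.227 of the RA level, at 0.474 in members with at least 100 UMIs of it and at 0.672 in Jchain-high barcodes. Tnfrsf17 had 336 and 88 UMIs (0.245, 0.192 to 0.311), with 0.511 and 0.680 (0.602 to 0.768) in the other selections. Sdc1, the plasma cell surface proteoglycan CD138, gave 0.283, 0.588 and 0.715 (0.603 to 0.847), Xbp1 0.418, 0.783 and 0.789 (0.733 to 0.848), and Ccr10 0.355, 0.750 and 0.696 (0.604 to 0.801). Txndc5 gave 0.30, 0.611 and 0.714 (0.670 to 0.761). Prdm1 did not share this, with 168 and 177 UMIs (0.986, 0.793 to 1.22) and 1.89 and 1.00 in the other selections. Igha stood at 0.181, 0.374 and 0.583.

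The lists followed the same course. Of 18 measured regulators and surface proteins 12 were past 1.5-fold lower and 0 higher in butyrate members (median log2 -0.78), but 4 lower and 1 higher of 18 in members with at least 100 Jchain UMIs (-0.24) and 1 lower of 19 in Jchain-high barcodes (-0.11). Translocation had 14 of 20 lower in members (-0.68) and 0 in both other selections (-0.04 and -0.04). ER-associated degradation had 10 of 15 lower (-0.85), then 2 and 0 (-0.22 and -0.12). ER folding had 9 of 23 lower in members (-0.46), and its median changed sign to 0.23 and 0.21 in the other selections. Hsp90b1 moved in the same way, from 0.816 to 1.46 and 1.27 (1.24 to 1.32). The background of genes measured at the same minimum of 20 UMIs was 28.4% higher and 17.7% lower in members, 16.7% and 15.8% in members with at least 100 Jchain UMIs, and 10.5% and 12.2% in Jchain-high barcodes. The B cell programme was higher for 8 of 15 genes in members (median 0.65), Ms4a1 by 7.48-fold (4.44 to 13.5) and Pax5 by 3.96-fold (2.31 to 7.17), and for 0 of 11 and 0 of 15 in the other selections.

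**Figure D2:**
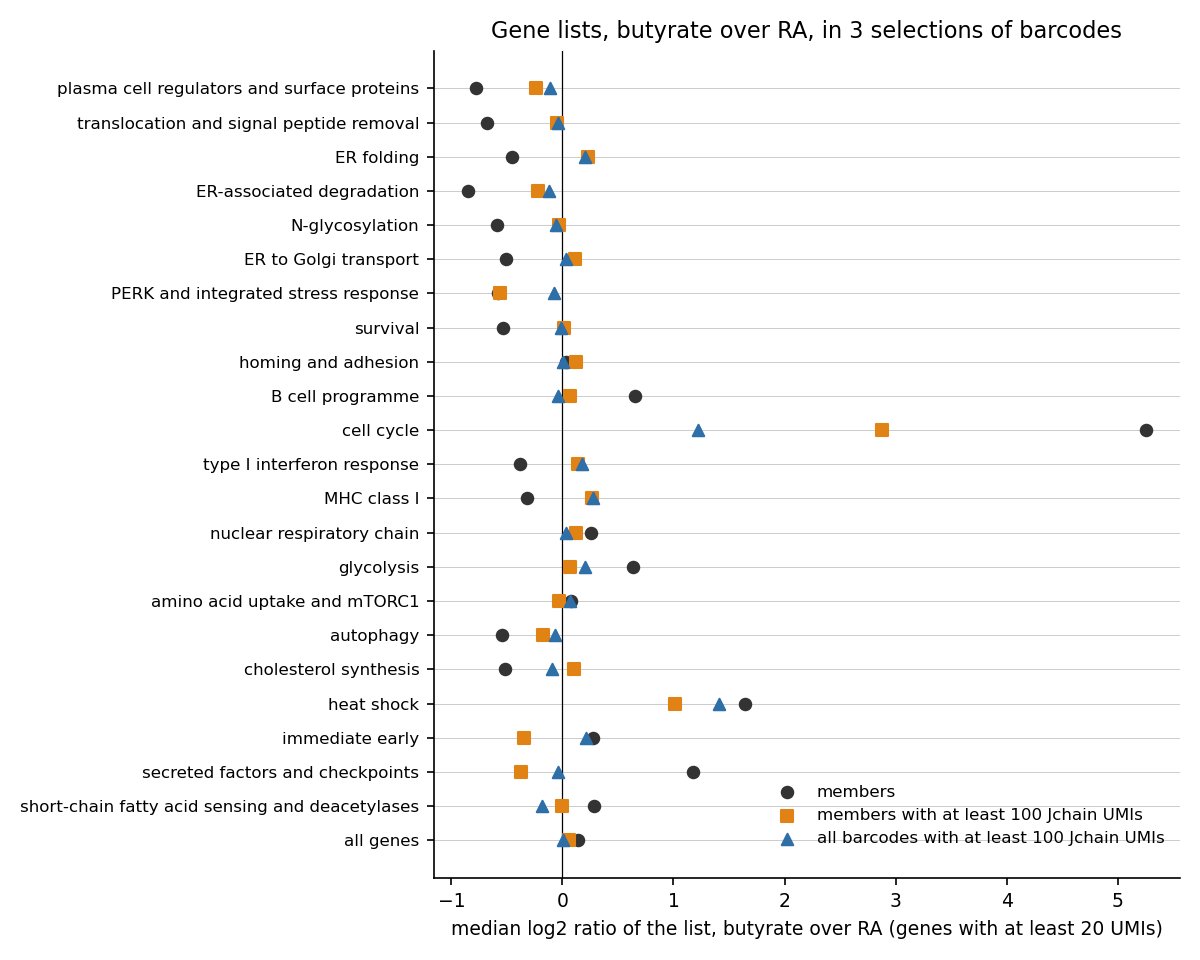
Each line is 1 gene list, and the 3 points give its median log2 ratio of butyrate over RA in members, in members with at least 100 Jchain UMIs and in Jchain-high barcodes. Most lists move toward 0 from the first to the last, while the cell cycle list (5.25, 2.87 and 1.22) and the heat shock list (1.64, 1.02 and 1.41) stay above it.

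Heat shock genes kept their direction. Of 12 cytosolic and mitochondrial chaperones 11 were past 1.5-fold higher in butyrate members (median log2 1.64), 9 of 10 in members with at least 100 Jchain UMIs (1.02) and 12 of 12 in Jchain-high barcodes (1.41). Hspd1, the mitochondrial chaperonin Hsp60, had 50 UMIs in 27 RA members and 287 in 22 butyrate members (5.37-fold, 3.97 to 7.40), 3.43-fold with at least 100 Jchain UMIs and 2.70-fold (2.27 to 3.22) in Jchain-high barcodes. Its partner Hspe1 had 134 and 519 UMIs (3.62-fold, 2.99 to 4.41), with 3.26-fold and 2.45-fold (2.19 to 2.73). Hsph1, a nucleotide exchange factor of Hsp70, gave 3.91-fold, 3.18-fold and 2.79-fold (2.31 to 3.38), and Hsp90aa1, cytosolic Hsp90, 3.16-fold, 2.06-fold and 2.11-fold (1.96 to 2.28). Hspa1a, inducible Hsp70, gave 3.36-fold, 3.75-fold and 3.05-fold (2.74 to 3.39) but was seen in 7 and 10 members only.

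In other cells the same 12 genes had medians of -0.02 in B cells, -0.20 in T cells, 0.53 in epithelial, 0.78 in myeloid and 0.90 in stromal cells, with 1 and 0 genes past 1.5-fold higher in B and T cells and 12 in stromal cells. Per barcode, the summed list ran from 134.9 to 23176 CPM (median 2431) in RA and from 408.5 to 64062 CPM (median 4597) in butyrate Jchain-high barcodes, so the ranges overlapped. Medians of those not dividing were 2302 and 4045 CPM. The gap was narrower in members with at least 100 Jchain UMIs that were not dividing (48 RA, 11 butyrate). Their medians were 2103 and 2677 CPM, and their lower quartiles 1548 and 1311 CPM, with the butyrate quartile the lower. B cells had medians of 4038 and 3792 CPM, and the median of butyrate Jchain-high barcodes stood near them while the RA one stood lower. Heat shock genes also respond to dissociation, and its part in the result was not tested.

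**Figure D3:**
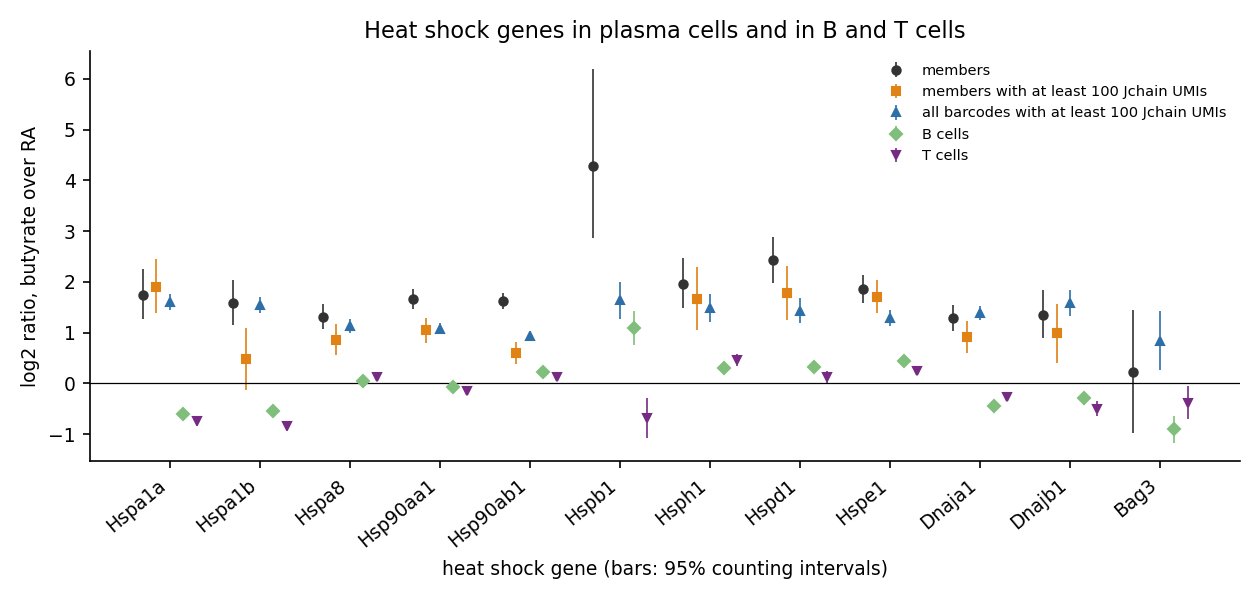
Each point is the ratio of butyrate over RA (log scale) of 1 of 12 heat shock genes with its 95% counting interval, in members, members with at least 100 Jchain UMIs, Jchain-high barcodes, B cells and T cells. In Jchain-high barcodes all 12 lie past 1.5-fold, whereas the list medians in B and T cells are -0.02 and -0.20 on the log2 scale. Epithelial, myeloid and stromal cells, which are not drawn, had medians of 0.53, 0.78 and 0.90.

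A few other genes were higher in every selection. Itgb1, the integrin beta 1 chain that anchors plasma cells to matrix, had 29 UMIs in 20 RA members and 155 in 22 butyrate members (5.0-fold, 3.35 to 7.71), 2.86-fold with at least 100 Jchain UMIs and 2.91-fold (2.35 to 3.62) in Jchain-high barcodes, where 76 of the 255 butyrate UMIs came from 1 barcode. B4galt1, a galactosyltransferase of the Golgi, gave 3.86-fold, 4.05-fold and 1.88-fold (1.35 to 2.63), and the glycolytic enzyme Eno1 6.70-fold, 5.40-fold and 1.98-fold (1.34 to 2.94). Il10, an anti-inflammatory cytokine that some IgA plasma cells make, had 7 UMIs in 7 RA and 23 in 9 butyrate members (3.07-fold, 1.28 to 8.48), and 3.47-fold with at least 100 Jchain UMIs. In Jchain-high barcodes it had 14 UMIs in 14 of 145 and 59 in 23 of 87 (6.25-fold, 3.45 to 12.1), 13 of them in 1 barcode. Other lists are set beside the share of all genes (28.4% higher in members and 10.5% in Jchain-high barcodes). Glycolysis had 6 of 12 higher and 0 lower in members (median 0.63), and 2 of 14 and 0 in Jchain-high barcodes (0.20). Respiratory chain genes had 6 of 20 higher and 1 lower in members (0.25), and 0 and 0 in Jchain-high barcodes (0.04). Interferon genes had 2 of 10 higher and 4 lower in members (-0.38), and 4 of 14 and 0 in Jchain-high barcodes (0.18).

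Markers of other cells were low in members. UMIs of 6 T cell markers were found in 3 of 51 and 4 of 32. The 8 epithelial markers stood at 166 and 73.4 CPM against 17846 and 18652 in epithelial cells. The limits of the rule on Cd3e and Epcam select against such barcodes, so these low values describe the rule in part. Jchain-high barcodes with at least 2 Epcam UMIs, which the rule left out, had the epithelial markers at 2424 and 1357 CPM. Myeloid markers had 92 UMIs in RA members, 87 of them in 1 cell, and stromal markers 197 in butyrate members, 169 of them in 1 Jchain-low member. Scores for doublets placed 0 RA and 1 butyrate member among the highest. Their part in single genes was not tested.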

How the data were processed

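The authors deposited UMI counts, whole and unnormalized, for every gene and barcode of their droplet 3' libraries. Per the submitters' processing notes, the tools were Seurat (4.0.3 and 4.0.4) and Cell Ranger 6.0.1, with mm10. Per the file headers, Cell Ranger 7.1.0 wrote the tables. Whether intronic reads were counted is not given in the sources used here.

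Members followed the rule in the report. Members and all gene lists (30 lists, 440 of 446 gene symbols in the files) were chosen with earlier results of these data known. UMIs were summed over cells of a library and given per 1000000 (CPM) after 392 immunoglobulin genes were left out. Ratios carry exact conditional binomial intervals and shares Clopper-Pearson intervals at 95%, for counting error only. A gene needed 50 UMIs over both libraries, or 20 within a list, where 0.5 was added to each sum for the median. Against 0, a floor of 3 counts was used. B cells were kept barcodes with at least 1 UMI of Ms4a1 and 2 of Cd79a, under 20 of Jchain, and 0 of Cd3e and Epcam, and epithelial cells had at least 3 of Epcam and 0 of Cd3e and Cd79a. Python 3.11.15 with scanpy 1.11.5, numpy 2.4.6, scipy 1.17.1 and pandas 2.3.3 was used, and the ratio and interval code was tested on simulated counts.

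Doublets were not removed from the main results. Scrublet scores, with 0.8% of barcodes per 1000 removed, served as an alternative. Genes were named as the 10 highest and 10 lowest ratios with a counting interval that excludes 1, in at least 10 members of the higher library. The 20 highest over B cells and up to 4 with the farthest ratio per list were added. Mitochondrial, ribosomal, immunoglobulin segment, hemoglobin, Y-linked and unnamed genes were left out, as were genes far below their level in another cell type. Ccr9, Creld2, Cxcr4, Ebf1, Edem2, Hsp90aa1, Hsp90b1, Hspa1a, Hspa5, Irf4, Itgb7, Pdia4, Sdf2l1, Sec11c and Tent5c were chosen after their values were seen. The selections at 100 Jchain UMIs were also added then.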

Additional observations from a re-analysis of the deposited data

Results flagged for a closer look

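The heat shock genes differed between cell types under the same comparison of butyrate with RA. Their median log2 ratio was 1.41 in Jchain-high barcodes, against -0.019 in B cells and -0.20 in T cells of the same libraries. It was 0.53 in epithelial, 0.78 in myeloid and 0.90 in stromal cells, so a higher level was not particular to plasma cells. Members with at least 100 Jchain UMIs had 1.02. Those of them not dividing had medians per barcode of 2103 (RA) and 2677 CPM (butyrate), with the lower quartile lower in the butyrate library. The difference between the cell types was not tested, since each library comes from 1 mouse.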

How the results depend on the processing

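No paired analysis was possible because each group has 1 library. The share ratio stayed below 1 under all its alternatives, from 0.342 (at least 100 Jchain UMIs) to 0.739 (at least 10). Its interval reached past 1 at a minimum of 10 (0.484 to 1.126). It did so too with each kept barcode thinned to 2000 UMIs and at least 8 of Jchain (0.424, 0.112 to 1.41). That setting left 9 RA and 5 butyrate barcodes. IgA in the butyrate library was 46.7% at a Jchain minimum of 10 UMIs, 81.8% at 40, 80% at 100 and 88.5% in Jchain-high barcodes, and kappa was 100% at 100 UMIs and 98.85% in Jchain-high barcodes. With 50% of UMIs as the class limit kappa was 96.9%. Dividing members were 13.8% (RA) and 26.4% (butyrate) in Jchain-high barcodes and 0% and 31.25% after thinning. In Jchain-high barcodes that were not members the shares were 19.8% and 20.9%. Barcodes in shared V pairs numbered 58 of 98 and 17 of 49 in Jchain-high barcodes with lambda V genes included, and 46 and 12 with kappa V genes only.

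Genes past 1.5-fold higher numbered 323 at 40 Jchain UMIs, 298 at 100, 488 in Jchain-high barcodes, 1801 per 1000000 of all UMIs, 64 after thinning to 1500 UMIs and 496 in IgA members alone. With at least 20 UMIs they were 1766, without a minimum 4874, and past 2-fold 466. Lower genes numbered 260, 250, 179 (all UMIs), 61 (thinned) and 323 (IgA alone), 375 as a mean over members, and 1104, 3915 and 208 for the last 3 settings. Over B cells, Jchain-high barcodes gave 1012 higher and 682 lower.

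Directions turned in Jchain-high barcodes for the B cell programme median (-0.044) and Lmna (1.17). Cd28 gave 1.03 at 40 Jchain UMIs, 1.12 at 100 and 1.03 in Jchain-high barcodes. Hsp90b1 gave 1.40, 1.46 and 1.27 there, 1.13 per all UMIs, 1.27 thinned, 1.19 in IgA members and 1.18 as a mean over members. Pax5 gave 0.219, 0 and 0.232, and 0.483 in IgA members. Of the causes, only the loss of the Jchain-low members follows from how the settings were built, and others were not tested. With 83 members of 1 mouse per group, depth limits genes of few UMIs.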
